A study of Mus musculus with 8 samples.

Results

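The cytosolic ribosomal protein genes of mouse oligodendrocyte precursor cultures were compared between 4 arrays from cultures kept at 31.5 °C and 4 arrays from cultures kept at 37 °C. A probe set is a group of short probes on the array that together read 1 transcript. Members are probe sets whose only annotated symbol begins with Rpl or Rps and a digit, or is Rplp0, Rplp1, Rplp2 or Rpsa. S6 kinases, pseudogenes and like genes such as Rpl22l1 and Rps27l were left out. The rule found 95 of 45037 probe sets, 42 of the large and 53 of the small subunit. They stand for 43 of 18193 named genes, 22 large and 21 small. A further 110 probe sets name a ribosomal protein gene together with a pseudogene or another gene. They belong to no single gene and are described separately as shared probe sets.

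All 8 arrays read cells of ICR mice, taken from the forebrain hemispheres of embryos at 15 days. The cells were grown for 5 days as mixed cultures with 10% serum and then spent 48 hr without serum, either at 31.5 °C or at 37 °C. The labels name no genetic change or agent in either group. Signals are MAS5 intensities scaled to a common trimmed mean over arrays, and a log2 difference is the 31.5 °C mean minus the 37 °C mean of log2 signals, ± SE from limma. Where a gene has several probe sets, the one with the highest mean signal stands for it. Whether the 4 replicates of a temperature were separate cultures is not stated, although 3 mice per group are mentioned. Errors and p-values thus cover only the variation among these arrays, which may be technical, and so few arrays limit the precision.

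The ribosome is built of a small subunit, which reads the messenger RNA, and a large subunit, which joins amino acids. Each subunit holds ribosomal RNA and a set of proteins that are made in about equal numbers. Messenger RNAs of ribosomal proteins begin with a run of pyrimidines, the 5′ terminal oligopyrimidine (TOP) tract, through which mTOR and the RNA-binding protein LARP1 control how many of them are translated. Cells often change ribosomal protein output in this way, at translation, which an array of total RNA does not read.

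The start regions are shown for 9 members. Rpl14, Rpl39, Rps6 and Rpl27a had the largest differences between temperatures, and the probe sets of Rps6, Rpl13a and Rps10 disagreed most among those with a promoter at hand. Rpl27 was the highest member above 0, Rps18 the one higher at 31.5 °C without overlap, and Rplp2 lay near 0. They were chosen after their values were seen. Sequences are from RefSeq (GRCm38.p6), 5′ to 3′ on the gene's strand, and hold the 15 bases before the annotated transcription start and the 15 bases from it. Capitals mark a TOP-like tract, a C followed by at least 4 C or T, that begins within 5 bases of that start. The windows lie at chr4:86857353-86857382 on the minus strand for Rps6, chr9:120571502-120571531 on the plus strand for Rpl14, chrX:37085208-37085237 on the minus strand for Rpl39, chr7:109519180-109519209 on the plus strand for Rpl27a, chr7:45128731-45128760 on the minus strand for Rpl13a, chr17:27635230-27635259 on the minus strand for Rps10, chr11:101442230-101442259 on the plus strand for Rpl27, chr17:33955651-33955680 on the minus strand for Rps18 and chr7:141447636-141447665 on the plus strand for Rplp2.
Rps6: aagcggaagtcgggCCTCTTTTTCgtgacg
Rpl14: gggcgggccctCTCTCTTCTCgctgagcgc
Rpl39: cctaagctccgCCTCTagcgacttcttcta
Rpl27a: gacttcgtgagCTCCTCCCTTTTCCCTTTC
Rpl13a: gaaaccctgcgacaagaCCTCCTCCTTTCC
Rps10: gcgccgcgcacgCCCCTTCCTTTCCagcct
Rpl27: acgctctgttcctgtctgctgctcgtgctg
Rps18: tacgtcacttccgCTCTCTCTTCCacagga
Rplp2: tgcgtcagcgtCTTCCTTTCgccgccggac
Such a tract stands in 8 of the 9 windows, all but that of Rpl27, a larger share than over all members (18 of 38 genes). A link of the tract to the temperature difference was not tested.

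Over all members, a promoter was given for 38 of 43 genes, and 18 of the 38 (47.4%) held the tract, against 21.2% of all 27025 genes with a promoter. The letters CCGGAAG, the core of sites bound by ETS family factors, stood on either strand in the 250 bases before or 50 bases after the start of 19 of these 38 genes, against 9.93% of all genes. The letters AAGATGGC, part of sites bound by YY1, were found in only 3 of these 38 genes (7.89%), against 3.19% of all genes. These are matches of letters and were not tested as sites. The 18 tested genes with a tract had a median log2 difference of -0.02 between 31.5 °C and 37 °C. It was 0.01 over the 19 with a promoter but no match. A tract counts only if it begins within 5 bases of the annotated start, so genes without a match may still have one. Rpl4, for example, holds a run of C and T further before its annotated start and was counted as without a tract. The medians were not tested against each other.

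The signals of the ribosomal protein transcripts as a group differed little between the temperatures. Of the 42 tested genes 0 were higher and 1, Rps6, was lower at 31.5 °C, and 41 did not pass (limma, Benjamini-Hochberg adjusted p under 0.05 over all 11525 genes tested). At the same threshold 15.4% of all genes were called, 7.64% higher and 7.77% lower. Without adjustment, 1 member was higher and 2 were lower at a p under 0.05, which 31.1% of all genes reached. The member not tested, Rps16, has 1 probe set of its own, with scaled signals of at most 3.36 on every array, below the filter of 36.3. In the fit with the replicate number as a block, which pairs the arrays, 0 members were higher and 3 lower (Rps6, Rpl14 and Rpl27a), where 30.8% of all genes were called, 15.0% higher and 15.8% lower.

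The median log2 difference, 31.5 °C minus 37 °C, was -0.00496 over the 42 members, with an interquartile range of -0.03 to 0.03. Over all genes tested the median was -0.00165 and the interquartile range -0.19 to 0.17. Of the members 31 (73.8%) lay within 0.1 of 0 and 37 (88.1%) within 0.2, against 29.6% and 53.9% of all genes. For 35 members (83.3%) the whole 95% interval lay within 0.4 of 0, as it did for 35.5% of all genes. The signals of the 2 temperatures did not overlap for 2 members, 1 higher (Rps18) and 1 lower (Rps6). That is 4.76% of the members, where 22.2% of all genes had no overlap. In bulk RNA, fewer cells of a type and less RNA per cell cannot be told apart.

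**Figure D1:**
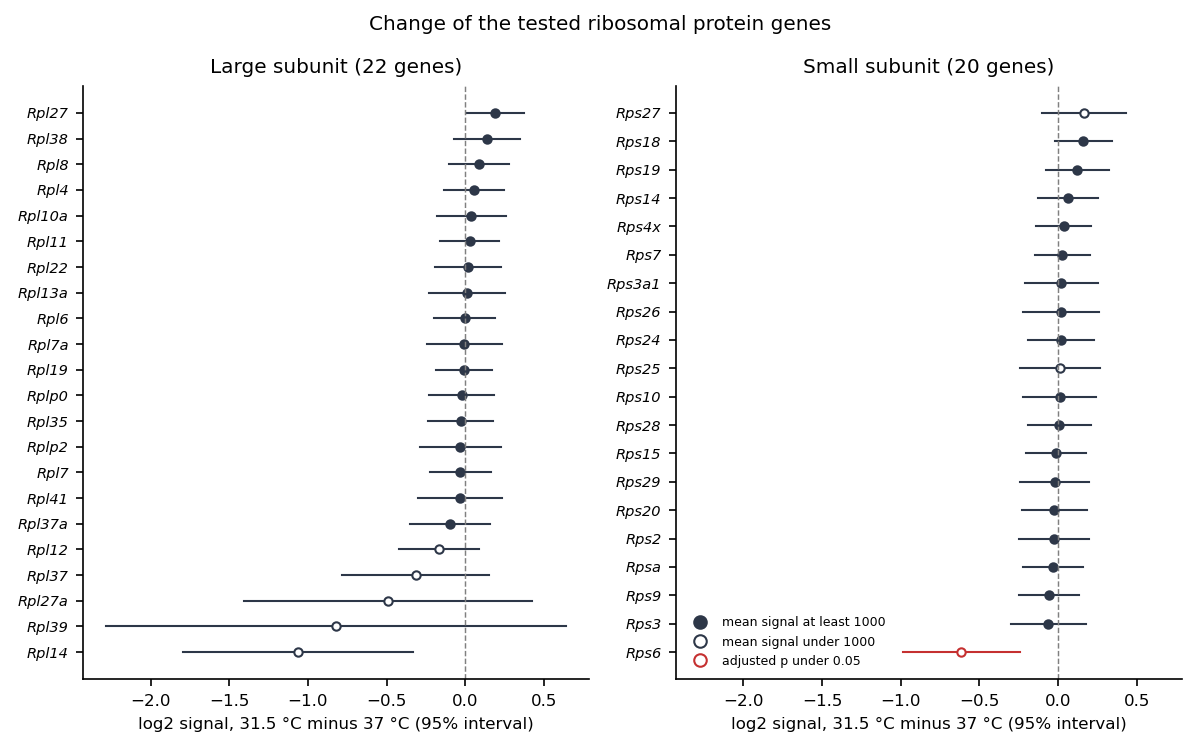
Log2 signal at 31.5 °C minus that at 37 °C for the 22 tested large subunit genes (left) and 20 small subunit genes (right), each a point with its 95% interval from limma over 4 arrays per temperature. Filled points, with a mean signal of at least 1000, all lie within 0.2 of 0. The wide intervals and the 1 call without the replicate block (Rps6, red) belong to open points.

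The large and the small subunit were set against each other. The median log2 difference was -0.02 over 22 large subunit genes, of which 0 were called, and 2 were lower with the replicate block. It was 0.01 over 20 small subunit genes, of which 1 was called in either fit. Of all genes 15.4% were called, and 30.8% with the block. The large minus small difference of medians was -0.03, and in pairs 1 to 4 it was 0.03, -0.01, -0.01 and -0.07, an SD of 0.04 over pairs. The sign of this difference thus varied between pairs, and the difference was not tested. Among members with a signal of at least 1000, 17 of each subunit, the difference of medians was -0.01.

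Members fell into 2 classes by signal. A signal on these arrays depends on the probes as well as on the transcript, so it is not a level that can be compared between genes. The 34 members with a mean signal of at least 1000 (a limit chosen after the data were seen) all lay between 6207 and 13150. Of these 0 were called, and 0 in the replicate block fit. Their folds, 31.5 °C over 37 °C, ran between 0.934 and 1.14, with 95% intervals of the log2 difference reaching at most -0.35 and 0.37. The other 8 had signals between 97.3 and 719 and a median log2 difference of -0.40. They held the 1 call, where 15.4% of all genes were called, or 3 calls in the block fit, where 30.8% were.

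Small differences were also common among other transcripts of like signal, but less so than among the 34. The highest mean signal of the 34, 13150, was also the highest of all genes tested. Among 1899 genes that are no members and have a signal of at least 1000, 14.1% were called, and 28.3% with the replicate block. Among the 79 of these with a signal of at least 6207, the lowest of the 34, 0 were higher and 3 lower (3.80%), and 88.6% lay within 0.2 of 0. With the replicate block 1 of the 79 was higher and 7 were lower (10.1%).

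The stalk of the large subunit, which recruits translation factors, is made of P proteins. Rplp0, its base, had signals of 9506, 10517, 10489 and 9988 at 31.5 °C, against 9578, 9656, 10248 and 11791 at 37 °C. The temperatures overlapped, and the log2 difference was -0.02 ± 0.09 (SE; adjusted p = 0.892). Rplp2, a second stalk protein, had 9792, 10780, 10454 and 10882 at 31.5 °C, against 9007, 10302, 10838 and 13021 at 37 °C. Its values also overlapped, with a log2 difference of -0.03 ± 0.11 (adjusted p = 0.886). Rplp1, the partner of Rplp2, has a shared probe set (with Gm13777), whose signal was 9407 ± 612 at 31.5 °C and 9803 ± 1067 at 37 °C (SD, n = 4 each), a log2 difference of -0.06 ± 0.10 (limma, adjusted p = 0.770).

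Rpl11 and Rpl5 bind the 5S ribosomal RNA and, when free, the p53 regulator MDM2. Rpl11 had 6202, 6671, 6339 and 6064 at 31.5 °C, against 5760, 5899, 6311 and 6853 at 37 °C. The highest and the lowest value were both at 37 °C, and the log2 difference was 0.03 ± 0.08 (adjusted p = 0.853). Rpl5, read through probe sets shared with Rpl5-ps2, differed by 0.00342 ± 0.10 on the one with the highest signal (adjusted p = 0.988). Rpl3, a protein near the peptidyl transferase centre, and Rpl10, which joins the large subunit late, were also read only through shared probe sets. Their log2 differences were -0.00967 ± 0.09 and -0.02 ± 0.11 (adjusted p = 0.961 and 0.948). The ubiquitin fusion gene Rps27a was not analysed here.

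Rpl38, which in mouse embryos is needed for translation of Hox messenger RNAs, had 12784, 14077, 13414 and 12491 at 31.5 °C, against 10552, 11606, 12636 and 13308 at 37 °C. It was higher at 31.5 °C in 3 of 4 pairs, but the values overlapped and the difference of 0.14 ± 0.09 did not pass (adjusted p = 0.360). Rpl22, a protein that also binds a viral RNA in infected human cells, differed by 0.02 ± 0.09 (adjusted p = 0.926). Rpl7a, of the large subunit, differed by -0.00600 ± 0.11 (adjusted p = 0.979).

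The highest member above 0 was Rpl27, of the large subunit, named with Rps18 after its values were seen. Rpl27 had 8439, 9441, 8957 and 9069 at 31.5 °C, against 7439, 7477, 8056 and 8489 at 37 °C. All 4 pairs were higher at 31.5 °C, although the lowest 31.5 °C value was just under the highest at 37 °C. The log2 difference of 0.19 ± 0.08 (1.14-fold) did not pass (adjusted p = 0.138). Rps18, of the small subunit head, had 8070, 8337, 8117 and 8406 at 31.5 °C, against 6811, 7038, 7605 and 8043 at 37 °C. Here every 31.5 °C value was above every 37 °C value, and the difference of 0.16 ± 0.08 did not pass either (adjusted p = 0.203).

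In the small subunit, Rps14 and Rps19 are known from human anaemias caused by loss of 1 gene copy. Rps14 differed by 0.06 ± 0.08 (adjusted p = 0.657) and Rps19 by 0.12 ± 0.09 (adjusted p = 0.382). Rps3, which sits at the entry of the messenger RNA channel, had 6625, 6084, 6617 and 5523 at 31.5 °C, against 5556, 6396, 7006 and 7052 at 37 °C. Its values overlapped and differed by -0.06 ± 0.11 (adjusted p = 0.729). Rpsa, also known as the laminin receptor precursor, differed by -0.03 ± 0.08 (adjusted p = 0.837). Rps28 and Rps29, of the small subunit head, differed by 0.00882 ± 0.09 and by -0.02 ± 0.10 (adjusted p = 0.962 and 0.904).

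Rps6, the substrate of the S6 kinases downstream of mTOR, was the 1 member called without the replicate block, and 1 of 3 called with it. Its probe set 1416142_at had signals of 380, 491, 560 and 530 at 31.5 °C, against 563, 771, 842 and 835 at 37 °C. Every 31.5 °C value was below every 37 °C value, by 0.57, 0.65, 0.59 and 0.66 on the log2 scale in pairs 1 to 4. The log2 difference was -0.62 ± 0.16, 1.53-fold higher at 37 °C (adjusted p = 0.0367, and 0.00231 with the replicate block). With 1 array left out the call was lost in 7 of 8 fits, all but the one without replicate 1 at 37 °C, with adjusted p between 0.0191 and 0.0871. The log2 difference in these fits lay between -0.75 and -0.50. In the block fit without both arrays of any 1 replicate number the call held, with adjusted p between 0.0118 and 0.0155.

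The other probe sets that read Rps6 did not move with that one. Probe set 1453466_at, also annotated to Rps6 alone, had 49.7, 55.5, 57.2 and 60.6 at 31.5 °C, against 22.4, 31.8, 28.2 and 27.5 at 37 °C. These values did not overlap either, and they ran the other way, 2.04-fold higher at 31.5 °C (log2 difference 1.03 ± 0.12, adjusted p = 0.00186 in the fit of every probe set). With the mean of both probe sets the gene's log2 difference was 0.21 (adjusted p = 0.356). The 4 probe sets shared with Rps6-ps4 that have a signal of at least 1000 differed by -0.00347 to 0.06, and the one with the highest signal had 10154 ± 496 at 31.5 °C and 10167 ± 1963 at 37 °C (SD, n = 4 each).

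Rpl14, of the large subunit, had the largest log2 difference among the 42. Its probe set had 234, 111, 119 and 84.0 at 31.5 °C, against 421, 215, 247 and 221 at 37 °C. All 4 pairs were lower at 31.5 °C, while replicate 1 was the highest array at both temperatures and made the groups overlap. The log2 difference was -1.06 ± 0.32 (adjusted p = 0.0568), and with the replicate block it passed (adjusted p = 0.00216). Without replicate 1 at 31.5 °C it was -1.36 and passed (adjusted p = 0.0193). It did not pass in the other 7 fits with 1 array left out. In the block fit without both arrays of any 1 replicate number it passed, with adjusted p between 0.00753 and 0.0142. The 5 probe sets shared with Rpl14-ps1, with signals between 3297 and 4988, differed by 0.05 to 0.14.

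Rpl27a, of the large subunit, had 89.4, 106, 103 and 295 at 31.5 °C, against 130, 161, 167 and 323 at 37 °C. Replicate 4 was far above the other 3 at both temperatures, and each pair was lower at 31.5 °C. The log2 difference of -0.49 ± 0.40 did not pass (adjusted p = 0.452), and did with the replicate block (adjusted p = 0.0173). With 1 array left out its difference ranged between -0.89 and -0.22, at the ends without replicate 4 at 31.5 °C and at 37 °C. Rpl39, a protein of the exit tunnel, had 18.1, 53.2, 103 and 138 at 31.5 °C, against 66.8, 181, 60.2 and 184 at 37 °C. Its values were scattered at both temperatures, and the difference of -0.82 ± 0.65 did not pass (adjusted p = 0.432). With 1 array left out it was between -1.21, when replicate 4 of the 31.5 °C arrays was dropped, and -0.24, when replicate 1 of that group was. In the block fit without both arrays of replicate 3 it was -1.35 and passed (adjusted p = 0.0337).

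Rpl37 (-0.31 ± 0.21, adjusted p = 0.340), Rpl12 (-0.17 ± 0.11, adjusted p = 0.347), Rps25 (0.01 ± 0.11, adjusted p = 0.950) and Rps27 (0.17 ± 0.12, adjusted p = 0.378) were the other members with a signal under 1000. Each of the 8 members in this class is also named on at least 1 shared probe set with a signal of at least 1000. There were 17 of these, with log2 differences between -0.04 and 0.14, and 0 of them were called.

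Tested singly, the 85 own probe sets past the filter gave 3 higher and 4 lower calls, in a fit where 13.2% of 22519 probe sets were called, 6.46% higher and 6.76% lower. With the replicate block the calls were 4 higher and 8 lower, where 26.3% were called. The 103 shared probe sets gave 1 higher and 2 lower, and with the block 2 higher and 5 lower. Of the 149 own and shared probe sets with a signal of at least 1000, 0 were higher and 2 lower, and 143 lay within 0.2 of 0. In that signal class 11.1% of all probe sets were called. With the replicate block 1 of the 149 was higher and 3 were lower, where 22.2% of the class were called. Of the 39 with a lower signal 4 were higher and 4 lower, where 13.6% of all such probe sets were called. With the block 5 of the 39 were higher and 10 lower, where 27.0% were called.

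**Figure D2:**
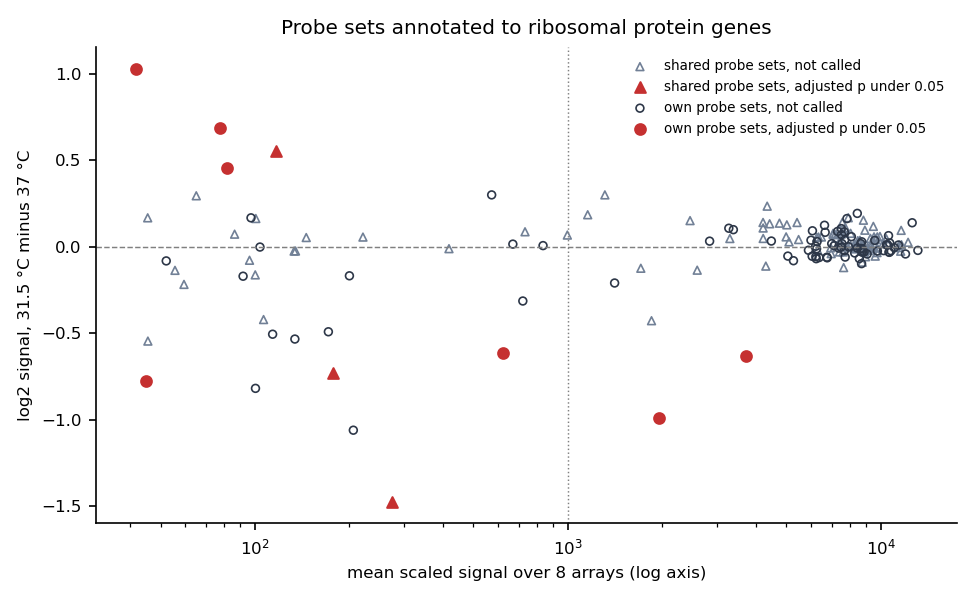
Log2 signal at 31.5 °C minus that at 37 °C (vertical) against the mean signal over 8 arrays (horizontal, log axis) for 85 own probe sets (circles) and 103 shared probe sets (triangles) of ribosomal protein genes, red where called. Right of the dotted line at 1000, 2 of 149 are called, where 11.1% of all such probe sets were, and left of it 8 of 39, where 13.6% were.

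The 2 calls with a signal over 1000 were both probe sets of Rpl13a, a large subunit protein that in human myeloid cells is also released from the ribosome to silence inflammatory transcripts. Probe set 1433928_a_at had 1198, 1262, 1354 and 1433 at 31.5 °C, against 2380, 2736, 2566 and 2735 at 37 °C, a log2 difference of -0.99 ± 0.09 (adjusted p = 0.000737). Probe set 1455001_x_at had 2662, 3185, 2861 and 2930 at 31.5 °C, against 3790, 4576, 4757 and 4994 at 37 °C, a log2 difference of -0.63 ± 0.11 (adjusted p = 0.00823). Neither overlapped between temperatures. The other 2 probe sets of the gene did not follow. Probe set 1455485_x_at, which stands for the gene because its signal is the highest, had 10262, 10432, 10568 and 10453 at 31.5 °C, against 8859, 9592, 11192 and 12093 at 37 °C (0.01 ± 0.11). Probe set 1417608_a_at differed by 0.08 ± 0.10 (adjusted p = 0.618). With the mean of the 4 the gene was called lower, with a log2 difference of -0.38 (adjusted p = 0.0275).

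Rps20 and Rps10, of the small subunit, are the other genes whose probe sets disagreed most. For Rps20, 1421935_at had 76.9, 102, 87.7 and 118 at 31.5 °C, against 71.4, 55.8, 52.4 and 57.6 at 37 °C (log2 difference 0.69 ± 0.15, adjusted p = 0.0211). A second, 1450417_a_at, was also higher at 31.5 °C (0.46 ± 0.11, adjusted p = 0.0318). Both were without overlap, while the probe set of the gene with the highest signal differed by -0.02 ± 0.10 (adjusted p = 0.904). For Rps10, 1436384_at had 22.3, 40.9, 36.8 and 33.7 at 31.5 °C, against 53.2, 66.6, 50.4 and 54.8 at 37 °C. It was lower at 31.5 °C without overlap (-0.78 ± 0.19, adjusted p = 0.0279), and the other 5 probe sets of Rps10 differed by at most 0.10.

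**Figure D3:**
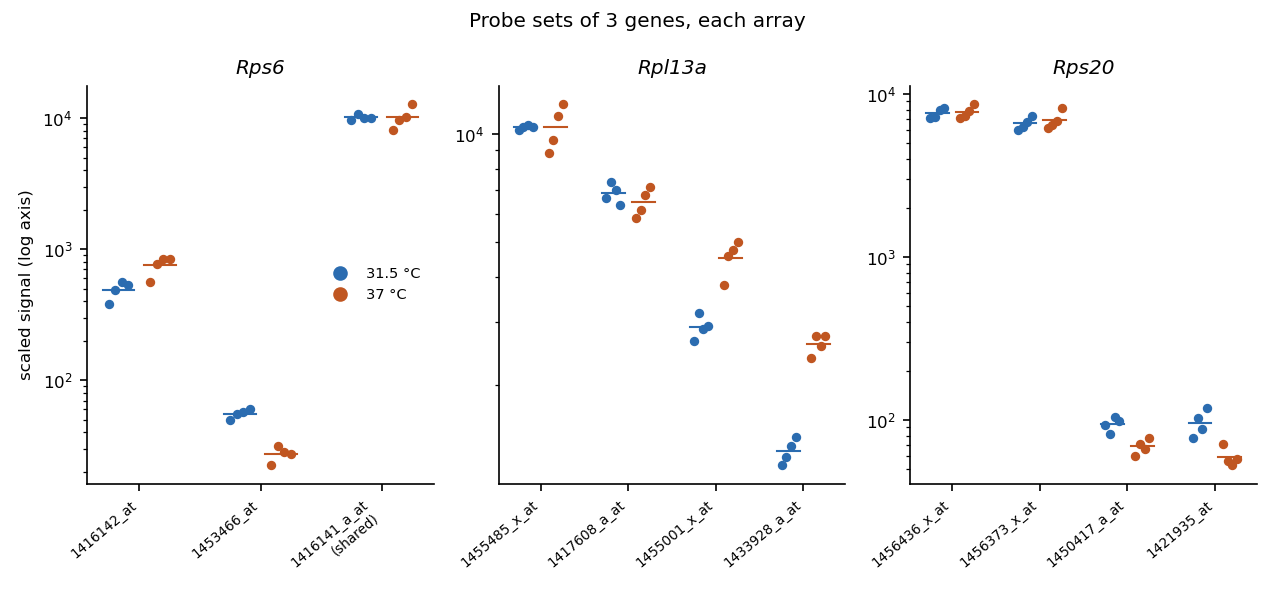
Scaled signal (log axis) of each array for probe sets of Rps6, Rpl13a and Rps20, with 31.5 °C (blue) left of 37 °C (orange) and a line at each mean of 4 arrays. In Rpl13a and Rps20 the 2 probe sets of highest signal overlap between temperatures and the other 2 separate, while in Rps6 both own probe sets separate, in opposite directions (-0.62 and 1.03), and the shared one overlaps.

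Among the shared probe sets, 1420381_a_at (Rpl31 with Rpl31-ps12) had the largest difference of all 188. It had 155, 134, 141 and 149 at 31.5 °C, against 458, 344, 398 and 415 at 37 °C, so that every 31.5 °C value was less than any at 37 °C. The log2 difference was -1.47 ± 0.11, 2.78-fold higher at 37 °C (adjusted p = 0.000286). The 3 other probe sets of the same 2 symbols, with signals between 9077 and 11453, differed by -0.00533 to 0.05. The other 2 shared calls were 1422859_a_at, which names Rpl23 (-0.73 ± 0.18, adjusted p = 0.0307), and 1450838_x_at, which names Rpl37 (0.55 ± 0.15, adjusted p = 0.0475). These shared probe sets were named after their values were seen. For the 27 ribosomal protein genes that appear only on shared probe sets, 22 large and 5 small, the probe set of highest signal differed by -0.06 to 0.17, and 0 were called.

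The median of the members shifted from array to array, by amounts that depended on the scaling. With trimmed mean scaling, the median deviation of the 42 genes from their own means was -0.03, 0.05, 0.02 and -0.01 on replicates 1 to 4 at 31.5 °C. It was -0.16, -0.09, 0.04 and 0.17 on those at 37 °C, whose scaling factors were 0.848, 0.872, 1.01 and 1.60. The large and the small subunit gave the same signs on all 8 arrays. The 79 other genes of like signal deviated by -0.08, -0.04, 0.03 and 0.13 on the 37 °C arrays. With quantile normalization the members' deviations on all arrays lay between -0.04 and 0.02. Scaled to a common median, they were -0.06, -0.04, -0.02 and -0.09 on the 37 °C arrays. With no scaling they were 0.11, 0.14, 0.05 and -0.49 there, where all genes tested gave 0.26, 0.21, 0.02 and -0.64. With trimmed mean scaling the members' median log2 difference in pairs 1 to 4 was 0.10, 0.14, -0.05 and -0.18, so its sign differed between pairs. The own probe sets made up 3.60% to 3.79% of the summed signal at 31.5 °C, and 3.39% to 4.09% at 37 °C.

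**Figure D4:**
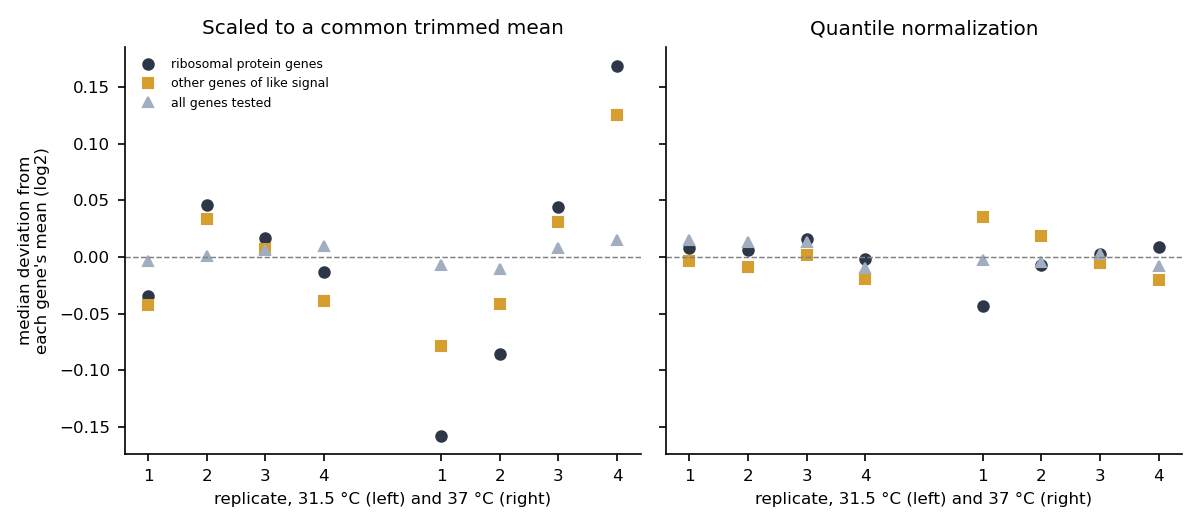
Median deviation from each gene's mean over 8 arrays (log2) for the 42 ribosomal protein genes, 79 other genes of like signal and all genes tested, on each 31.5 °C array (left in each panel) and 37 °C array (right). Under trimmed mean scaling the ribosomal protein genes lie between -0.16 and 0.17 on the 37 °C arrays, and under quantile normalization between -0.04 and 0.01.

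Genes whose products build ribosomes were mostly higher where they were called. Of 107 tested genes for ribosomal RNA processing and subunit assembly, 20 (18.7%) were higher and 2 (1.87%) lower at 31.5 °C. Of all genes tested 7.64% were higher and 7.77% lower. The median log2 difference over the 107 was 0.18. With the replicate block 36 of the 107 were higher and 3 lower, where 15.0% and 15.8% of all genes were. Gnl2, a GTPase of large subunit assembly, had a signal of 556 at 31.5 °C and 350 at 37 °C (log2 difference 0.67 ± 0.07, adjusted p = 0.00118). Riok3, a kinase of small subunit maturation, rose by 0.56 ± 0.08 (adjusted p = 0.00409), and the nucleolar protein Ncl by 0.41 ± 0.08 (adjusted p = 0.0117). Brix1, of large subunit assembly, rose by 0.53 ± 0.08 (adjusted p = 0.00445). Averaged over each gene's probe sets the difference was -0.27 for Brix1 and 0.10 for Ncl, and neither passed. The 2 that fell were the helicase Ddx51 (-0.40) and Rrp1b (-0.29). Fbl, the methyltransferase of ribosomal RNA, and Npm1 did not pass (-0.09 ± 0.11 and -0.01 ± 0.08). With 1 array left out the count of higher genes ranged between 8 and 22, with 8 to 10 without replicate 1, 2 or 3 at 31.5 °C or replicate 2 at 37 °C. It was 4 with arrays scaled to a common median, where 454 of all 11524 genes were higher. With no scaling it was 0, where 115 of all genes were. The median log2 difference over the 107 was 0.27 and 0.26 at these settings, where that of the ribosomal protein genes was 0.08 at both.

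Of 15 tested genes of RNA polymerase I, which transcribes ribosomal RNA, 1 (6.67%) was higher at 31.5 °C, Polr1a (0.53 ± 0.14, adjusted p = 0.0337), and 0 were lower. The shares over all genes were 7.64% higher and 7.77% lower, and 15.0% and 15.8% with the replicate block. The block fit called 3 higher. Averaged over its probe sets Polr1a differed by 0.24 and did not pass, and it passed in 13 of 24 alternatives. Of 32 initiation factors 2 (6.25%) were higher and 1 (3.1%) lower, with a median of 0.10, and with the block 7 were higher and 1 lower. With 1 array left out 1 to 4 were higher, the most without replicate 4 at 31.5 °C. Eif4a2, a helicase of initiation, had 3223 at 31.5 °C and 5182 at 37 °C (-0.68 ± 0.08, adjusted p = 0.00255), Eif2b3 differed by 0.66 ± 0.09 and Eif3m by 0.31 ± 0.08 (adjusted p = 0.00330 and 0.0328). Eif3m passed in 13 of 24 alternatives. Of 9 elongation factors 1 (11.1%) was higher, Eif5a2 (0.61 ± 0.10, adjusted p = 0.00732), and 1 (11.1%) lower, Eef1a2 (-0.63 ± 0.13, adjusted p = 0.0140).

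Other transcripts that begin with a TOP tract gave 0 higher and 2 lower (9.09%) of 22 tested, against 7.64% and 7.77% of all genes. With the block 1 was higher and 2 were lower, where 15.0% and 15.8% of all genes were. The lower ones were the histone chaperone Nap1l1 (-0.64 ± 0.08, adjusted p = 0.00342) and the noncoding Snhg12 (-0.48 ± 0.10, adjusted p = 0.0150). Averaged over its probe sets Nap1l1 differed by -0.18 and did not pass. Eef1a1 (-0.01 ± 0.11), Eef2 (-0.06 ± 0.08) and Tpt1 (-0.00560 ± 0.11) did not pass. Fau, whose product is cut to give a small subunit protein and whose symbol the rule does not take, differed by 0.10 ± 0.09 (adjusted p = 0.482).

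Mitochondrial ribosomal protein genes, whose products make a separate ribosome inside mitochondria, gave 5 higher and 8 lower of 76 (17.1%), near the 15.4% of all genes, with a median of -0.000968. With the replicate block 12 were higher and 12 lower, where 15.0% and 15.8% of all genes were. With 1 array left out 2 to 6 were higher and 3 to 6 lower, the fewest (2 and 3) without replicate 2 or 3 at 31.5 °C. The counts were 3 and 1 with arrays scaled to a common median, where 454 and 271 of all 11524 genes were called. They were 0 and 0 with no scaling, where 115 and 112 of all genes were. Mrps21 differed by -0.68 ± 0.09 (adjusted p = 0.00358), Mrps25 by -0.63 ± 0.10 (adjusted p = 0.00572) and Mrpl2 by 0.60 ± 0.10 (adjusted p = 0.00845). Of 4 tested genes that resemble a ribosomal protein gene, 0 were called, and 2 were higher with the replicate block. Those were Rps4l (0.70 ± 0.21, adjusted p = 0.0582, with the block 0.00296) and Rps27l, a p53 target (0.27 ± 0.11, adjusted p = 0.132, with the block 0.0290). Rpl22l1 differed by -0.20 ± 0.07 (adjusted p = 0.108).

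Of 34 tested genes of the mTOR pathway, S6 kinases, Myc family and TOP-binding proteins, 1 (2.94%) was higher and 2 (5.88%) lower. Of all genes 7.64% were higher and 7.77% lower. With the block 6 of the 34 were higher and 4 lower, where 15.0% and 15.8% of all genes were. Rictor, of mTOR complex 2, differed by -0.49 ± 0.12 (adjusted p = 0.0280), the kinase Rps6ka3 by -0.41 ± 0.10 (adjusted p = 0.0256) and Larp1b by 0.30 ± 0.08 (adjusted p = 0.0409). Averaged over all probe sets of the gene, Rictor differed by -0.06 and Rps6ka3 by 0.00861, and neither passed. Rictor passed in 16 of 25 alternatives, Rps6ka3 in 14 of 25 and Larp1b in 8 of 23. Mtor (0.04 ± 0.08), Myc (-0.13 ± 0.10) and Larp1 (-0.05 ± 0.10) did not pass. Of 17 tested genes for import, free ribosomal proteins and stalled ribosomes, 2 (11.8%) were higher and 2 (11.8%) lower. The higher ones were Gtpbp1 (0.47 ± 0.08) and Habp4 (0.33 ± 0.09). The lower ones were the importin Ipo7 (-0.34 ± 0.07) and Nemf (-0.36 ± 0.10), and the adjusted p of these genes lay between 0.00908 and 0.0457. Habp4 passed in 11 of 25 alternatives and Ipo7 in 21 of 25.

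**Figure D5:**
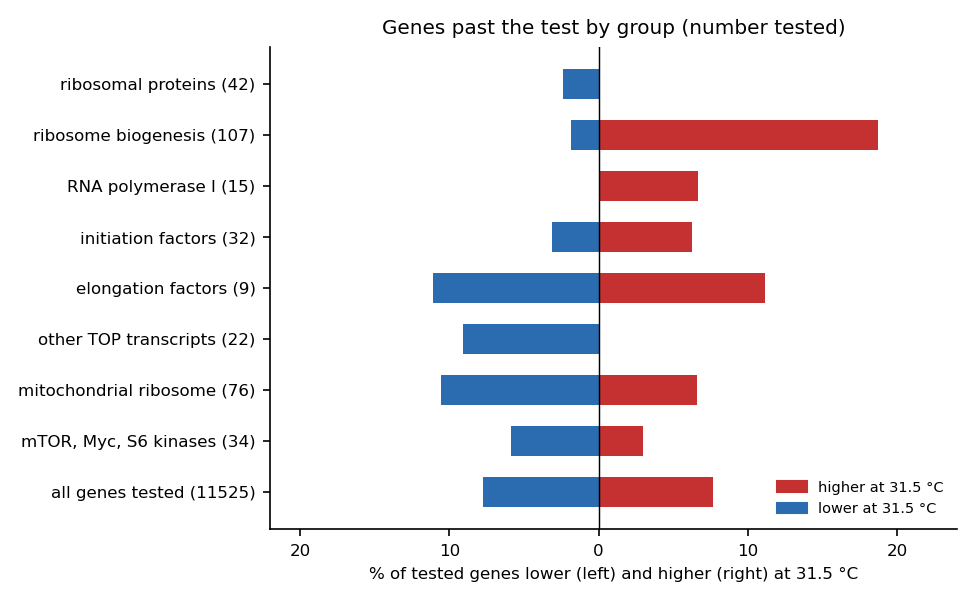
Percent of tested genes in each group that were lower (blue, left) or higher (red, right) at 31.5 °C by limma at an adjusted p under 0.05, with the number tested in parentheses. Ribosomal protein genes show 0 higher and 1 lower of 42, ribosome biogenesis genes 20 higher and 2 lower of 107, and all genes tested 7.64% higher and 7.77% lower.

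The trimmed mean signals of the deposited values ranged between 189 and 238 at 31.5 °C, and between 132 and 248 at 37 °C. Ratios of 3′ to 5′ actin control probes were 1.17 to 1.27 at 31.5 °C and 1.20 to 1.30 at 37 °C. Summed signals of 5 precursor markers were 10932 to 12955 at 31.5 °C and 10446 to 13240 at 37 °C. Those of 4 oligodendrocyte markers were 8085 to 11697 at 31.5 °C and 15830 to 19110 at 37 °C, and all 3 that were tested were lower at 31.5 °C. Sums for 5 astrocyte markers were 4344 to 8172 at 31.5 °C and 5571 to 11884 at 37 °C. For 5 microglia markers they were 2226 to 4710 at 31.5 °C and 2765 to 6697 at 37 °C. For 5 neuron markers they were 6116 to 7212 at 31.5 °C and 6568 to 8883 at 37 °C. Without detection calls, sums like these do not show whether a cell type was present. Sums were 1521 to 4534 at 31.5 °C and 1661 to 3691 at 37 °C for 5 fibroblast markers, and 67.3 to 105 at 31.5 °C and 60.8 to 136 at 37 °C for 5 endothelial ones. Of the 19 tested markers of astrocytes, microglia, neurons and fibroblasts 0 passed, where 15.4% of all genes did. An unadjusted p under 0.05 was reached by 4 of the 19 and by 31.1% of all genes. With the replicate block 10 of the 19 were lower and 0 higher, where 15.8% and 15.0% of all genes were. The part of cell makeup in the results for ribosomal protein genes was not tested.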

How the data were processed

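The deposited table holds probe set intensity values on a linear scale, which the authors computed with MAS5 (no version stated), per the submitters' processing notes. The scaling target, detection calls and genome build are not given in the sources used here. After 64 control probe sets were left out, arrays were brought to the average of their 2% trimmed means by factors of 0.848 to 1.60, a floor was set at the 25th percentile (9.80), and log2 was taken. Of 45037 probe sets, 34945 carry 1 gene symbol in the platform annotation, 932 several and 9160 none. The probe set with the highest mean stood for a gene, and 11525 genes at or above the median mean (36.3) were tested two-sided in R 4.3.3 with lmFit and eBayes of limma 3.58.1. P-values were adjusted over all of them by Benjamini and Hochberg, with a threshold of 0.05. All 22519 probe sets past the filter were fitted likewise. No pair of arrays shared more than 0.708% of its values. No depth applies to arrays, and 4 arrays per temperature limit the precision.

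Arrays of 1 replicate number correlated in their deviations from the group means at 0.541, 0.422, 0.497 and 0.614, arrays of different numbers at 0.0566 or less, so the numbers pair the arrays. Over the 42 ribosomal protein genes alone the same-number values were 0.845, -0.132, -0.520 and 0.908. The block fit is given beside a result whose call it alters or whose count it moves by over 1.5 times. Lists are described by counts and medians, with no list test. The members, lists and tests were chosen with earlier results of these data known. Named members are those called, the 4 with the highest and the 4 with the lowest signal, the 4 with the largest SD, the 4 whose probe sets differ most, and 16 set genes. Each other list gives up to 3 called genes of smallest p and a few set genes, and other names were chosen after their values were seen. The fit without the block was tried on simulated data whose arrays were independent, unlike the arrays here, which correlate within a replicate number. The block fit was not simulated. Alternatives changed the scaling, floor, filter, probe sets, variance model, block, threshold and arrays used. Start regions were searched in RefSeq promoters (GRCm38.p6). Python 3.11.15 with matplotlib 3.10.9 drew the figures.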

Additional observations from a re-analysis of the deposited data

Results flagged for a closer look

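In Rpl27a, replicate 4 at 31.5 °C stood apart from the other 3 arrays of its group, with a signal of 295 where the others lay between 89.4 and 106. Its gap to the nearest of them was 0.860 of the group's log2 range. Replicate 4 at 37 °C was also the highest of its group, at 323. Chance marks about 1 in 20 groups in this way, and this was 1 of 44 groups of 4 arrays looked at.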

How the results depend on the processing

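The median log2 difference of the ribosomal protein genes lay between -0.05 and 0.08 over 25 alternatives, and the large minus small difference of medians between -0.06 and 0.00782, each moving by less than its spread over pairs. The count of called ribosomal protein genes was 0 with a common median or no filter, 2 with a filter at the 70th percentile, without _x_at and _s_at probe sets (1 higher and 1 lower) or with an intensity trend, 3 with the replicate block or an unadjusted p, and 7 of 85 with every probe set taken singly. It ranged between 0 and 3 when arrays or pairs were left out. Over all genes, 1775 calls became 725 with a common median, 227 with no scaling, 2977 for single probe sets, 3548 with the replicate block, 3584 at an unadjusted p, and 872 to 2422 when arrays or pairs were left out, the fewest without replicate 3 at 31.5 °C. Of the calls 49.6% were higher at 31.5 °C, and 62.6% with a common median. With the mean of probe sets Rps6 turned to 0.21 and Rpl13a to -0.38, and without _x_at and _s_at probe sets Rps20 turned to 0.46. In these 3 cases other probe sets of the gene enter the value. Of 543 values for single ribosomal protein genes, 25 changed side of the threshold and 64 changed sign, 63 of these in genes that did not pass and lay within 0.0633 of 0. The 21 called genes followed from the other lists all lost the call with no scaling, and 14 passed in all but 3 or fewer of their alternatives. Signals under 1000 were the least precise, with a median SE of 0.19 over 8 genes, against 0.09 over 34.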
